A study of Mus musculus with 8 samples.

Results

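First-intron accessible regions are stretches of open chromatin that the deposited table places in the first intron of a transcript. All regions whose listed gene section was the first intron and that lay on chromosomes 1 to 19 were taken, without use of their signal. There were 53475 such regions of 489637 in the table, or 10.9%, and they belonged to 7024 genes and 7837 transcripts. A further 536 first-intron regions on other sequences were not used.

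The series measured chromatin accessibility by ATAC-seq, in which a transposase cuts and tags open DNA, in mouse gastrocnemius, a calf muscle made mostly of fast fibres. All 8 libraries carried the genotype Cre+:iMSBmal1 fl/fl and came from animals aged 6 months, so the controls hold the Cre and the floxed Bmal1 alleles too. The 4 libraries of the Vehicle group came from animals given vehicle, and the 4 of the iMSBmal1KO group from animals given tamoxifen, which switches on the recombinase. Effects of tamoxifen itself and of the loss of Bmal1 cannot be told apart in this design, the promoter that drives Cre is not given in the sources used here, and the titles of the knockout libraries also carry the word control. The labels do not say how many animals stand behind the libraries, so p-values measure the spread between these samples. Each library came from nuclei of whole muscle homogenates, so fewer nuclei of one type and less open chromatin per nucleus cannot be told apart.

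The first intron is often the longest intron of a mammalian gene and commonly holds enhancers and alternative promoters that act together with the nearby start site. BMAL1, the product of Bmal1 (Arntl), pairs with CLOCK and binds E-box motifs, and through them drives rhythmic genes such as Nr1d1, Dbp and the Per and Cry genes. RORA, one of the nuclear receptors of the clock, activates Bmal1 at elements that NR1D1 represses.

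Promoter windows from RefSeq (GRCm38.p6) show what kind of element a region annotated to a first intron can be. Each window runs from 250 bases before to 50 after a RefSeq gene start, and 218 of the first-intron regions overlapped such a window, 171 of them that of a different gene than the one listed. The 3 windows below were the ones lying wholly inside a tested region, and are shown because the listed first intron is there the promoter of another transcript. Capitals mark every match to CANNTG, the general E-box, which reads the same on both strands and includes CACGTG, the form that CLOCK and BMAL1 bind best.
Mir1a-1hg promoter, chr2:180385354-180385653, plus strand: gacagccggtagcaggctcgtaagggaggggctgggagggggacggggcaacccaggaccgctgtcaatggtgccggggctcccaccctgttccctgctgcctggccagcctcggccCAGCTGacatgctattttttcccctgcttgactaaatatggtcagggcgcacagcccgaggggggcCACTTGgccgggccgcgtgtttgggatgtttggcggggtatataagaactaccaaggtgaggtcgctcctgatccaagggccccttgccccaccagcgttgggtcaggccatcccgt
Gm40442 promoter, chr12:73404170-73404469, plus strand: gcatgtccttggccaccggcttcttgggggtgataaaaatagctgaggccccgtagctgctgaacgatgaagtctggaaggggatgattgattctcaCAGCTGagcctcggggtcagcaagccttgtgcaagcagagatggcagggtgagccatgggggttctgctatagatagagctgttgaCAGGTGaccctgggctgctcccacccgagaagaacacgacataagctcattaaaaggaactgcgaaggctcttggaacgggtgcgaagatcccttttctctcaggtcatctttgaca
Gm40103 promoter, chr3:98026059-98026358, minus strand: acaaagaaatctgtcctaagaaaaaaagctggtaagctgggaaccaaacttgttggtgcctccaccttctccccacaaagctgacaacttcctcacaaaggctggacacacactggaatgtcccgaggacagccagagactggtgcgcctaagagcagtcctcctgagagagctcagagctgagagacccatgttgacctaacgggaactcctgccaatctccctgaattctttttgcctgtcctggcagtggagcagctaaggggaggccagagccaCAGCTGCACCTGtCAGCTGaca

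The windows of Mir1a-1hg and Gm40442 held 2 matches to CANNTG each and that of Gm40103 held 3, and none held CACGTG. Of all 32851 promoter windows of the same length, 72.3% held CANNTG, with a median of 1 match, and 7.15% held CACGTG. Mir1a-1hg is the host transcript of miR-1, the abundant microRNA of striated muscle, and its window lay in the first intron listed for B230312C02Rik, 170 bp from that gene's start. The region there, chr2:180385059-180385715, had a signal of 1745, 1492, 1582 and 941 across Vehicle replicates 1 to 4 and of 1253, 1444, 1436 and 1481 across iMSBmal1KO replicates 1 to 4. The groups overlapped, Vehicle replicate 4 was the lowest library, and the log2 change was -0.00 ± 0.19 (SE, limma adjusted p = 0.997). The region over the Gm40103 start, in the first intron of the receptor gene Notch2, had a log2 change of 0.31 ± 0.20 (adjusted p = 0.615), and that over the Gm40442 start one of -0.21 ± 0.20 (adjusted p = 0.724).

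The first-intron regions were short, with a median length of 108 bp (50 to 1683 bp), and together covered 6.82 Mb. Of them 41.7% directly abutted a neighbour, so neighbouring regions are not independent. The number per gene was uneven: the median gene had 3, 1914 genes had 1, and 14 genes had over 100. Protein-coding genes held 79.2% of the regions, lincRNA genes 12.7% and antisense genes 4.91%. The listed transcript itself was a protein-coding one for 52.5% of the regions. The table names one transcript per region.

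The distance from the listed transcript start ran from 100 bp to 4285620 bp, with a median of 13346 bp and quartiles of 3736 and 36582 bp. The lower end is set by the annotation, because regions closer to a start are listed as start sites. Regions in later introns, of which there were 103000, lay farther away, at a median of 49008 bp. A different transcript start of the table was nearer than the listed one for 25112 of the first-intron regions (47.0%). Of the 38295 regions more than 5000 bp from their own listed start, 329 (0.859%) lay within 1000 bp of another.

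The upper end of the distance range rests on one annotation. The listed first intron of Galnt2l, a polypeptide N-acetylgalactosaminyltransferase gene by its name, belongs to a transcript of 4.43 Mb on chr8:119910841-124345722, inside which 75 RefSeq coding genes lie. It held 773 first-intron regions, 202 of them tested, and 625 of the 631 first-intron regions more than 1 Mb from their start. The signal per kb, the ratio to later introns and the median change for the range over 100000 bp are therefore also given without it.

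The deposited values, here called signal, are not whole numbers. Nearly all were whole multiples of one step per library, and dividing by that step gave read equivalents, below also called reads. Some values were not whole multiples, so these are estimates and not recovered counts. Depth ran from 4.31 to 29.5 M read equivalents, lowest in Vehicle replicate 4 and highest in iMSBmal1KO replicate 1. The median tested first-intron region held from 5 reads in the former to 46.0 in the latter, and 25.6% against 2.07% of all first-intron regions had a value of 0 there. Vehicle replicate 4 also had the highest share of mitochondrial signal, 16.5% against 1.11% to 5.51% in the other 7 libraries. Of the 53475 regions, 13339 (24.9%) in 3746 genes passed the filter on low signal and were tested. The fast-fibre genes with first-intron regions, Mybpc2, Tnnc2 and Actn3, had a summed signal of 1626 to 2840 over the Vehicle and 2126 to 2570 over the iMSBmal1KO libraries, against 34.4 to 54.7 and 29.8 to 51.8 for the slow-fibre genes Myl3 and Atp2a2. Sums of different genes are not per length. Per kb, the median tested region had 375 units of signal in the fast-fibre and 91.3 in the slow-fibre genes.

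Accessibility along the first intron was highest within a few kb of the start and declined with distance. The median tested region had 150 units of signal per kb at 100 to 1000 bp, 158 at 1000 to 2000 bp and 161 at 2000 to 5000 bp. It then had 146 at 5000 to 10000 bp, 143 at 10000 to 20000 bp, 130 at 20000 to 50000 bp, 127 at 50000 to 100000 bp and 126 beyond. Between 2000 to 5000 bp and beyond 100000 bp the fall was 1.28-fold, a log2 ratio of 0.36 ± 0.063 (SD, n = 8 libraries). Every one of the 8 libraries showed it, with log2 ratios from 0.24 in Vehicle replicate 4 to 0.44 in Vehicle replicate 3 (exact two-sided sign-flip test, p = 0.00781, the smallest that 8 libraries can give). Without Galnt2l the median beyond 100000 bp was 120 units per kb. The decline was not particular to first introns. In later introns the median tested region had 182 units per kb at 100 to 1000 bp, 156 at 2000 to 5000 bp and 130 beyond 100000 bp. The median length of first-intron regions, tested or not, was 89 bp at 100 to 1000 bp and 118 bp beyond 100000 bp. The part of length in the decline was not tested.

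Immediately behind the start the profile was flatter. The range of 100 to 1000 bp lay below that of 2000 to 5000 bp by a log2 ratio of -0.09 ± 0.079 (SD, n = 8), in 6 of 8 libraries (exact sign-flip p = 0.0312). In Vehicle replicates 3 and 4 it lay slightly above, by 0.02 and 0.04. The share of regions that passed the filter also fell with distance, from 31.7% at 2000 to 5000 bp to 19.9% beyond 100000 bp.

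**Figure D1:**
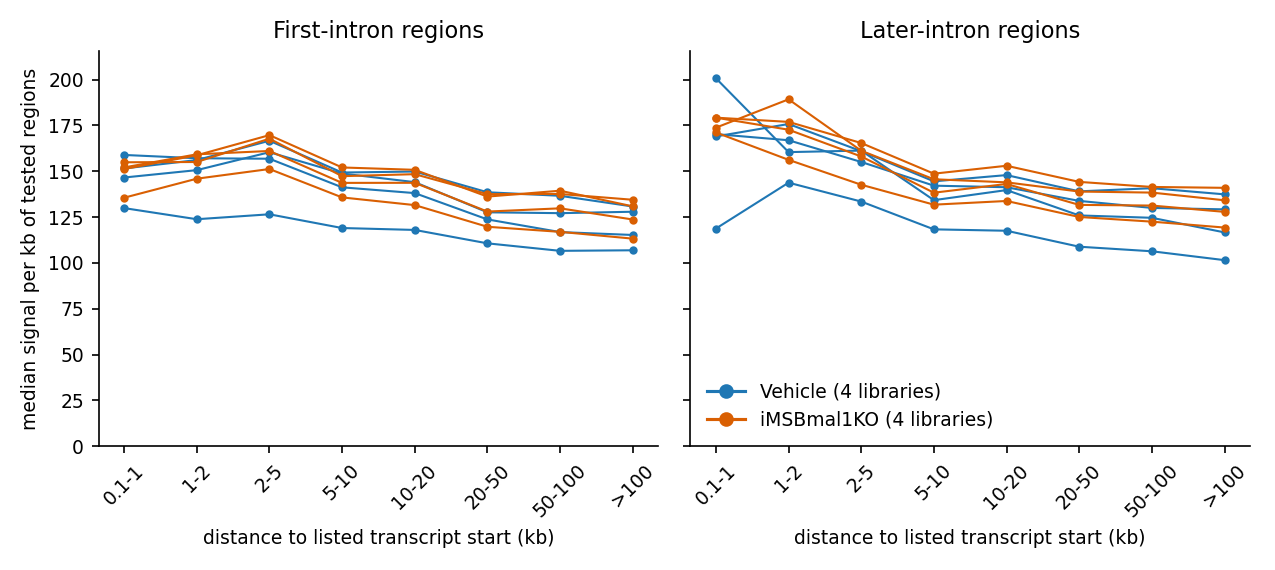
Median signal per kb of tested regions (y axis, deposited signal units) by distance to the listed transcript start (x axis, kb), 1 line per library, for first introns (left) and later introns (right). First-intron medians run from 127 to 170 units per kb over the libraries at 2 to 5 kb and from 107 to 134 beyond 100 kb, and Vehicle replicate 4 is the lowest line in each range.

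Set against later introns at the same distance, first introns were the denser class in the middle of this range and the sparser one at its far end. These ratios use the summed signal of all regions of a class divided by their summed length. First-intron regions were lower at 100 to 1000 bp, at 0.787-fold of later introns, where the later introns numbered 367. They were higher at 2000 to 5000 bp by a log2 ratio of 0.11, at 5000 to 10000 bp by 0.10 and at 10000 to 20000 bp by 0.04. They were lower again at 20000 to 50000 bp (0.963-fold), 50000 to 100000 bp (0.935-fold) and beyond 100000 bp (0.910-fold, a log2 ratio of -0.14). Without the regions annotated to Galnt2l that last log2 ratio was -0.30, an alternative chosen after seeing the data. Each of these ratios had the same direction in 8 of 8 libraries (exact sign-flip tests, p = 0.00781 and adjusted p = 0.00781 over 8 ranges).

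Some of these calls depended on how the class was summarised. Over tested regions only, the ratio turned at 2000 to 5000 bp (log2 -0.01, adjusted p = 0.195) and at 10000 to 20000 bp (log2 -0.05, adjusted p = 0.0104). As the ratio of median regions it was lost at 100 to 1000 bp (log2 -0.01, adjusted p = 0.883) and at 20000 to 50000 bp (log2 -0.01, adjusted p = 0.268), and turned beyond 100000 bp (log2 0.04, adjusted p = 0.0208), all by exact sign-flip tests.

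At 1000 to 2000 bp a single region set the ratio. It lay in the first intron of the lincRNA gene Gm33838, chr9:35305222-35305752, 1847 bp from the start, and had 74944 units of signal per kb, against 2046 for the next densest region of the range, in Mybpc2, which encodes fast myosin-binding protein C. Its signal was 34639, 26834, 16942 and 38277 across Vehicle replicates 1 to 4 and 17661, 35746, 94199 and 54063 across iMSBmal1KO replicates 1 to 4. The groups overlapped, with iMSBmal1KO replicate 3 highest and Vehicle replicate 3 lowest, and the log2 change was 0.60 ± 0.54 (SE, limma adjusted p = 0.730). It made up 20.7% to 60.7% of the signal of that range. The first-to-later ratio at 1000 to 2000 bp was 1.76-fold with this region and 1.10-fold without it.

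Over the libraries, first-intron regions took 7.07% ± 0.236 of the signal on chromosomes 1 to 19 in Vehicle and 6.75% ± 0.192 over the iMSBmal1KO libraries (SD, n = 4 per group). The libraries overlapped, with Vehicle replicates at 7.04%, 6.84%, 7.40% and 6.99% and iMSBmal1KO replicates at 6.89%, 6.67%, 6.52% and 6.93%. The difference of -0.32 percentage points had an exact two-sided permutation p of 0.0857 and an adjusted p of 0.673 over 11 summaries. None of the 11 passed. With 4 libraries per group that test gives no p below 0.0286, so 1 separated summary alone could not have passed. With the signal on all chromosomes as the denominator the difference was 0.03 percentage points. The Vehicle and iMSBmal1KO groups had 10.7% ± 1.01 and 12.7% ± 3.25 of the first-intron signal at 1000 to 2000 bp (SD, n = 4). Without Gm33838 these were 7.57% ± 0.169 and 7.52% ± 0.068.

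**Figure D2:**
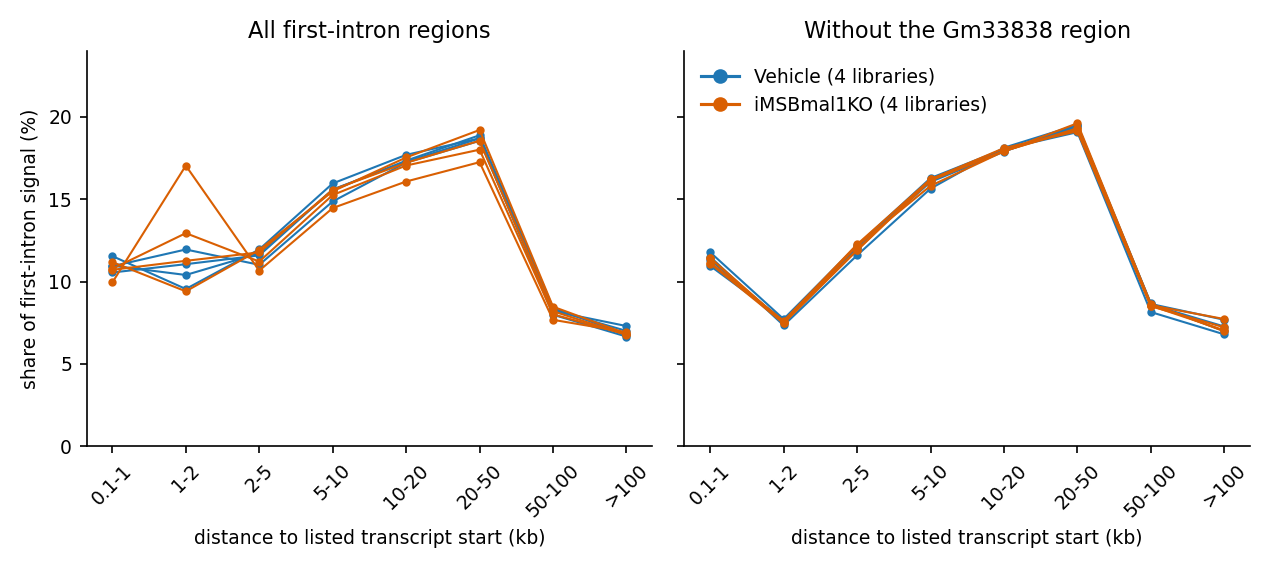
Share of first-intron signal (y axis, %) in each distance range (x axis, kb), 1 line per library, with all regions (left) and without the Gm33838 region (right). The peak of iMSBmal1KO replicate 3 at 1 to 2 kb, 17.0%, is absent on the right, where the 8 lines nearly coincide.

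The densest region of each distance range shows where the signal per kb of tested first-intron regions was highest. Whether these regions are regulatory elements was not tested. Lpin1, whose phosphatidate phosphatase makes diacylglycerol, had an 836 bp region 2502 bp into the gene with 1530 ± 259 units in Vehicle and 1444 ± 195 in iMSBmal1KO (SD, n = 4). Rbm20, the splicing factor of titin, had one 52341 bp from the start with 1283 ± 358 and 1206 ± 137 units. The hedgehog transducer gene Smo had one at 12163 bp with 3039 ± 1351 and 2228 ± 785 units. At 100 to 1000 bp the densest region was in the lincRNA gene Gm41804, with 431, 691, 463 and 100.1 units over Vehicle and 981, 979, 1317 and 842 over iMSBmal1KO replicates 1 to 4. The groups did not overlap, Vehicle replicate 4 was lowest, and the log2 change of 1.56 ± 0.56 (SE) missed the threshold (unadjusted p = 0.0252, adjusted p = 0.505 by limma). The other ranges were led by Gm33838, Gm33148, Gm31814 and Mdga2. The region of the lincRNA gene Gm33148 lay 49424 bp from Igf2, the growth factor gene nearest to it among coding genes. None of these 8 regions passed the test (limma adjusted p from 0.505 to 0.975).

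The comparison of iMSBmal1KO with Vehicle asks which first-intron regions opened or closed after Bmal1 was lost. Few did: 11 of 13339 tested regions changed at an adjusted p below 0.05 by limma's moderated test, 3 higher and 8 lower. That is 0.0825%, beside 0.0881% of all 124901 tested regions of the table. Higher calls were 0.0312% and lower calls 0.0568% of all tested regions. Without adjustment, 1088 first-intron regions (8.16%) had p below 0.05, beside 9.22% of all tested regions, with 699 higher and 389 lower, beside 6.59% and 2.63% of all tested regions in these directions. The 8 libraries separated completely by group in 694 (5.20%), beside 5.48%, with 406 higher and 288 lower, beside 3.62% and 1.87%. The balance of directions at an unadjusted p below 0.05 turned with the scaling, to 381 higher and 715 lower with equal totals and to 503 and 780 with loess. The shares in either direction, as deposited, lay near those of the whole table.

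The few calls moved strongly with single libraries and with the scaling. Without Vehicle replicate 1 there remained 1 call, that of Rora, and without iMSBmal1KO replicates 3, 2 and 4 there were 2, 3 and 5. Without Vehicle replicate 2 there were 13, of which 8 were higher and 5 lower and 7 were among the 11. Leaving out Vehicle replicate 3 gave 4, and leaving out Vehicle replicate 4, the shallowest library, gave 32. When the libraries were scaled to equal totals there were 26 calls, 3 higher and 23 lower, and after an abundance-dependent loess scaling 41, 6 higher and 35 lower. The median log2 change of all tested regions was 0.12 as deposited, 0.00 with equal totals and 0.01 with loess, and that of first-intron regions was 0.08, -0.04 and -0.03, below the median of all regions each time. Changes near 0.1 on the log2 scale therefore have no fixed sign here.

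The change varied little with distance. The median log2 change was 0.04 at 100 to 1000 bp and lay between 0.07 and 0.10 in the other 7 ranges. Beyond 100000 bp it was 0.07 with and 0.08 without Galnt2l. The share with unadjusted p below 0.05 was 5.78% at 100 to 1000 bp and 7.77% to 9.53% elsewhere, none of which was tested between ranges. Of the 11 calls 2 lay within 2000 bp of the start, where 21.0% of the tested regions lay, and 9 lay beyond 5000 bp. Protein-coding genes had 8 of the calls, lincRNA genes 2, both higher, and antisense genes 1.

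**Figure D3:**
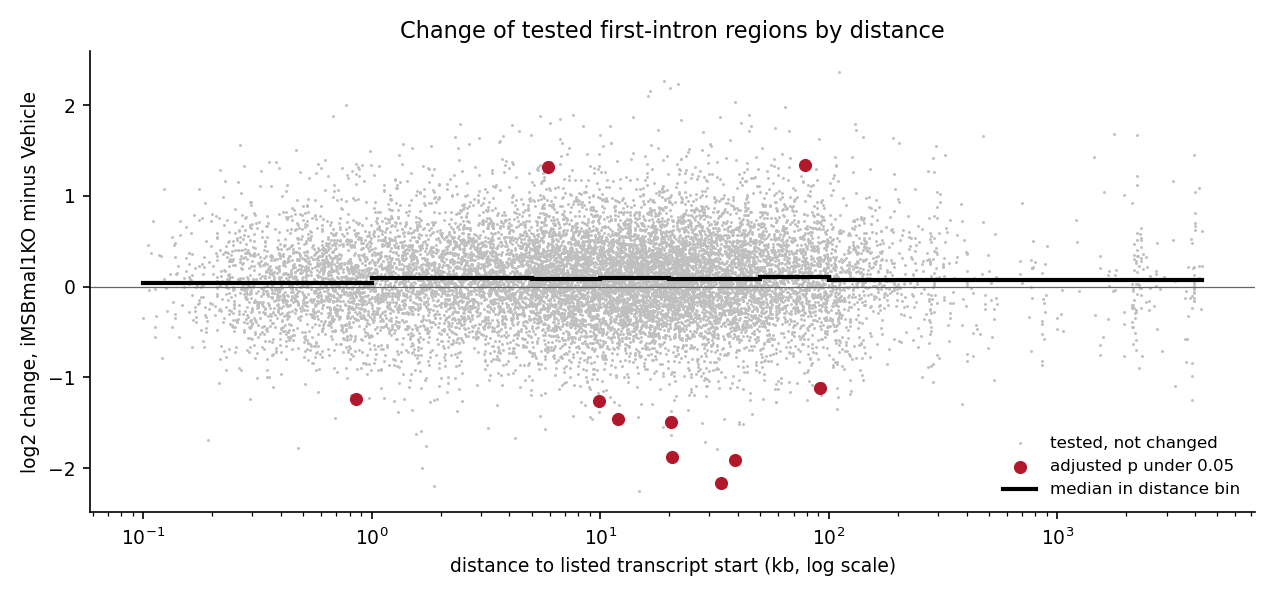
Log2 change of each tested first-intron region (y axis, iMSBmal1KO minus Vehicle) by distance to the listed start (x axis, kb, log scale), with 10 of the 11 changed regions in red and the median of each distance range as a black line. The medians lie between 0.04 and 0.10, while the changed regions lie at -1.12 or below and at 1.32 or above.

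The smallest adjusted p was that of a region in Rora, the gene of the clock receptor described above. The region chr9:68687572-68687762, 33681 bp into the first intron, had a signal of 65.0, 76.0, 68.6 and 40.6 across Vehicle replicates 1 to 4 and of 12.8, 11.7, 13.1 and 13.8 across iMSBmal1KO replicates 1 to 4. All 4 knockout libraries lay below the lowest Vehicle library, and they spread little among themselves. The log2 change was -2.16 ± 0.29 (SE, adjusted p = 0.00204), a 4.48-fold lower signal on the log2(signal + 1) scale. The region rested on 13 to 108 reads in the Vehicle and 11 to 30 in the iMSBmal1KO libraries. It was the one call kept in all 17 alternative fits, with adjusted p up to 0.0260. The region abuts no other, so merging of abutting regions left its signal as it was.

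By its median, the rest of the Rora first intron had no common direction. It held 345 regions between 1518 and 542089 bp from the listed start, of which 104 were tested, and the 103 others had a median log2 change of 0.00, with 53 of them positive. Of all 104, 7 had an unadjusted p below 0.05, at distances from 2404 to 497141 bp. All 7 were lower in iMSBmal1KO, which is 6.73%, beside 2.92% lower among all tested first-intron regions. In either direction the share among all tested first-intron regions was 8.16%. The second smallest p, 380539 bp into the intron, came with a log2 change of -1.29 (adjusted p = 0.224). The summed signal of the intron averaged 6655 ± 1037 over Vehicle and 6235 ± 407 over iMSBmal1KO libraries (SD, n = 4; exact permutation p = 0.543). With equal totals and with loess the median of the 104 was -0.12 in both cases, so it followed the scaling. The 7 lower regions were counted as deposited only.

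**Figure D4:**
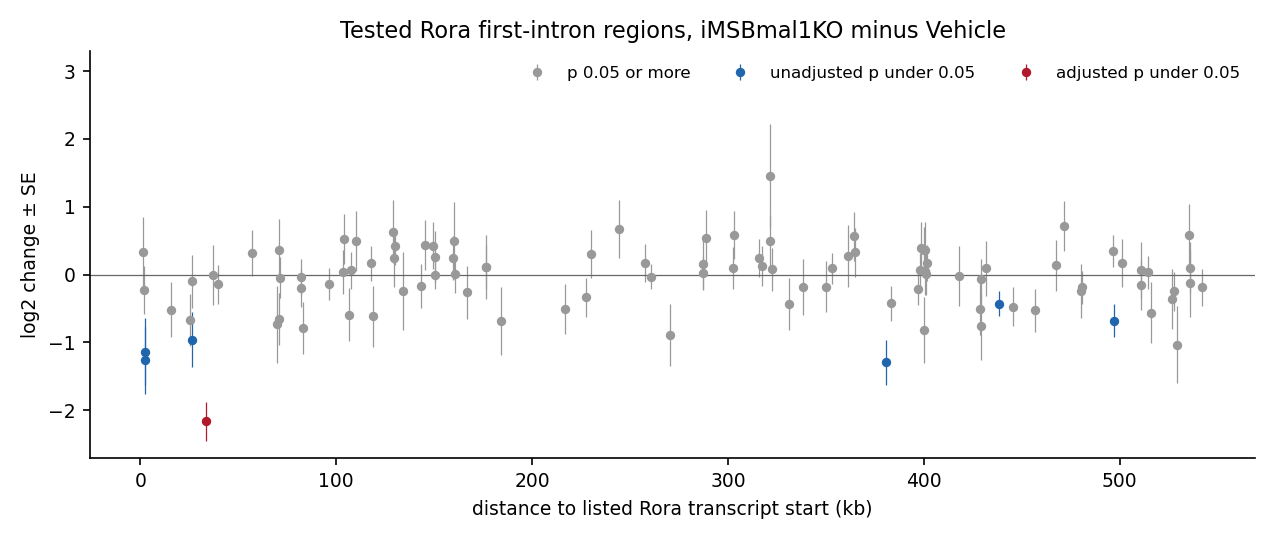
Log2 change with its SE (y axis) of the 104 tested Rora first-intron regions by distance from the listed start (x axis, kb), iMSBmal1KO minus Vehicle. The changed region at 34 kb, at -2.16, lies below all others, and the 6 further regions with unadjusted p below 0.05 are all below 0 as well.

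Other clock genes gave few first-intron regions to measure. Of 19 core clock genes, 5 had any, with 354 regions in all and 110 tested in Rora, Nr1d1, Cry2 and Dbp. Of these 110, 1 was lower at an adjusted p below 0.05, that of Rora, and 0 were higher. Without adjustment 9 were lower and 1 was higher, together 9.09% beside 9.22% of all tested regions. Of all tested regions 2.63% were lower and 6.59% higher at that level, as deposited. The list's directions were not recounted under the other scalings. There, lower regions outnumbered higher ones among all tested first-intron regions, by 715 to 381 with equal totals and 780 to 503 with loess. Rora held 104 of the 110 regions and 7 of the 9 lower ones. The median of the list was -0.00 beside 0.08 over all tested first-intron regions. Dbp, a clock output transcription factor and direct BMAL1 target, had a single region 555 bp from its start, at chr7:45705824-45706030. Its signal was 124, 84.2, 104 and 128 across Vehicle replicates 1 to 4 and 58.2, 51.0, 64.4 and 67.7 across iMSBmal1KO replicates 1 to 4. The groups did not overlap, but the log2 change of -0.84 ± 0.23 (SE) missed the threshold (adjusted p = 0.273).

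Nr1d1 encodes REV-ERBα, the repressor that competes with RORA. Its first-intron region 1009 bp from the start was the strongest of these clock regions, with 1136, 914, 935 and 666 units in Vehicle and 965, 987, 669 and 973 in iMSBmal1KO libraries. The groups overlapped fully and the log2 change was -0.02 ± 0.19 (SE, adjusted p = 0.985). A second one at 2096 bp had a log2 change of -0.05 (adjusted p = 0.945), and a smaller one at 2488 bp of 0.60 (adjusted p = 0.532). In Cry2, a cryptochrome repressor of BMAL1, a region 5880 bp from the start had 45.8, 41.1, 37.5 and 37.5 units in Vehicle and 29.1, 25.1, 22.7 and 22.6 in iMSBmal1KO libraries. These groups did not overlap, and the log2 change was -0.68 ± 0.26 (SE, adjusted p = 0.492). Npas2, a partner of BMAL1 like CLOCK, had 2 regions, both under the filter.

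In Aebp1 all 4 tested first-intron regions had a lower mean signal in iMSBmal1KO, and 1 of them passed the test. The gene encodes a secreted, collagen-binding matrix protein. The changed region chr11:5862796-5863046, 849 bp from the start, had 414, 302, 276 and 244 units across Vehicle replicates 1 to 4 and 111, 130, 115 and 162 across iMSBmal1KO replicates 1 to 4. The groups did not overlap and the log2 change was -1.24 ± 0.22 (SE, adjusted p = 0.0249). Leaving out Vehicle replicate 1 or 3, or iMSBmal1KO replicate 1, 2 or 3, raised the adjusted p above the threshold, to at most 0.162.

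The other 3 tested Aebp1 regions, at 688, 1100 and 1502 bp, had log2 changes of -1.45, -1.12 and -1.36, with unadjusted p below 0.05 and adjusted p of 0.0513, 0.323 and 0.511. The groups separated in all 4. The first 3 of the 4 abut each other, so they are a single block of open chromatin rather than independent sites. Outside the first intron, the tested region in the first coding exon had a log2 change of -0.80 (adjusted p = 0.508) and that at the transcript end -0.18 (adjusted p = 0.782). Fibro-adipogenic cells express many such matrix genes. Of 8 marker genes for these cells 3 had first-intron regions, 11 in all, with a summed signal of 145 to 279 in Vehicle and 152 to 262 in iMSBmal1KO libraries. The only tested one, in Dpt, had a log2 change of 0.09 (adjusted p = 0.926). The part of such cells in the Aebp1 values was not tested.

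Of the 1420 genes with at least 3 tested first-intron regions, Aebp1 and the antisense gene Gm49417 were the 2 in which every one had an unadjusted p below 0.05 in one direction. This pair was singled out after its values were seen. The Gm49417 regions lie inside the RefSeq gene Ppp3cc, a calcineurin catalytic subunit. The changed one, chr14:70219720-70219840, had 86.3, 76.0, 56.6 and 50.03 units across Vehicle replicates 1 to 4 and 24.8, 20.9, 25.05 and 22.6 across iMSBmal1KO replicates 1 to 4. The log2 change was -1.46 ± 0.27 (SE, adjusted p = 0.0327), and the groups did not overlap. Its neighbours had log2 changes of -1.30 and -0.96 (adjusted p = 0.171 and 0.409). The call was lost in 7 of 17 alternative fits, with adjusted p up to 0.194: with the replicate block and without Vehicle replicate 1, 2 or 3 or iMSBmal1KO replicate 2, 3 or 4. Over all gene sections listed for Gm49417, 5 regions were tested and 2 called, this one included, with a median log2 change of -1.44. The tested region listed in the first intron of Ppp3cc itself had a log2 change of -0.95 (adjusted p = 0.679), and those near its start had log2 changes of -0.01 and 0.31 (smaller adjusted p 0.683). At the start of the neighbouring gene Sorbs3, which encodes the adhesion adaptor vinexin, 4 of 10 tested regions were called lower, and the 10 had a median log2 change of -1.12.

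Man2a1, Xylt1 and Itgb5 each had a single region called lower. Man2a1 encodes a Golgi mannosidase that trims N-glycans. Its region chr17:64621391-64621537, 20655 bp from the start, had 76.7, 83.2, 68.0 and 46.9 units in Vehicle and 14.1, 20.1, 17.9 and 18.8 across iMSBmal1KO replicates 1 to 4, with no overlap. The log2 change was -1.88 ± 0.28 (SE, adjusted p = 0.00553), and 13 other tested regions of the intron had a median of -0.02. The call was lost only without Vehicle replicate 1 among the 17 alternative fits.

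Xylt1 encodes the xylosyltransferase that starts glycosaminoglycan chains on proteoglycans. At chr7:117419919-117420224, 38940 bp from the start, its region had 84.2, 92.5, 57.2 and 68.8 units in Vehicle and 13.3, 28.4, 15.5 and 22.6 across iMSBmal1KO replicates 1 to 4. No knockout library reached the lowest Vehicle library, and the log2 change was -1.91 ± 0.29 (SE, adjusted p = 0.00759). It was lost without Vehicle replicate 1 and without iMSBmal1KO replicate 3. Itgb5 encodes the integrin β5 chain of a vitronectin receptor. Its region chr16:33932337-33932538, 9851 bp from the start, had 101, 103, 120 and 84.4 against 35.1, 46.8, 39.4 and 46.4 units, without overlap. The log2 change was -1.26 ± 0.24 (SE, adjusted p = 0.0382), and 8 of the other 10 tested regions of that intron were negative too, with a median of -0.14.

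Slc25a37 and Pitpnc1 had the remaining regions called lower. Slc25a37 encodes mitoferrin-1, which carries iron into mitochondria, and its region chr14:69264381-69264824 lay 20288 bp from the start. The signal was 141, 137, 103 and 90.7 in Vehicle and 24.8, 42.6, 40.6 and 62.7 across iMSBmal1KO replicates 1 to 4, a log2 change of -1.49 ± 0.28 (SE, adjusted p = 0.0369) with no overlap. Pitpnc1 encodes a phosphatidylinositol transfer protein. The region chr11:107379471-107379714, 90985 bp from its start, had 210, 197, 196 and 159 against 74.5, 80.3, 87.1 and 110 units. The groups did not overlap, and the log2 change was -1.12 ± 0.21 (SE, adjusted p = 0.0472). The other tested regions of these introns had medians of 0.08 (6 regions) and 0.09 (14 regions), near 0 beside the changed regions. Itgb5, Pitpnc1 and Slc25a37 each kept their call in 9 or 10 of 17 alternative fits. Of the leave-one-out fits with a Vehicle library removed, at most 1 kept it, that without Vehicle replicate 4. Itgb5 and Pitpnc1 also lost the call without any one of the iMSBmal1KO replicates, and Slc25a37 without iMSBmal1KO replicate 1, 2 or 3. With the replicate block all of these calls were lost.

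Of the higher regions, those of 2 lincRNA genes are described here. In the lincRNA gene A530021J07Rik the region chr7:83140515-83140915, 78732 bp from the listed start, had 77.8, 91.4, 49.6 and 53.2 units in Vehicle and 181, 202, 157 and 137 across iMSBmal1KO replicates 1 to 4. The log2 change was 1.33 ± 0.24 (SE, adjusted p = 0.0327), without overlap. It was lost in 6 of 17 alternative fits, those without Vehicle replicate 1 or 3 or any one of the iMSBmal1KO replicates, with adjusted p up to 0.185. A small region 78520 bp from the start, under the filter, had 2.13, 4.11, 3.18 and 0 units in Vehicle and 23.97, 22.6, 21.5 and 10.04 in iMSBmal1KO libraries. In the lincRNA gene Gm11210 the region chr4:62711862-62712008, 5881 bp from the start, had 25.6, 32.9, 31.8 and 25.01 against 79.2, 71.9, 62.0 and 80.3 units, again without overlap. The log2 change was 1.32 ± 0.25 (SE, adjusted p = 0.0406). It was lost in 8 of 17 alternative fits, with adjusted p up to 0.188: under equal totals, with the replicate block, and without Vehicle replicate 1 or 3 or any one of the iMSBmal1KO replicates. The other tested region of Gm11210, at 16123 bp, had a log2 change of 2.10 ± 0.70 (adjusted p = 0.468). The nearest coding gene, Rgs3, a regulator of G-protein signalling, lay 8843 bp away, and none of its 20 tested regions passed the test (smallest adjusted p 0.342).

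**Figure D5:**
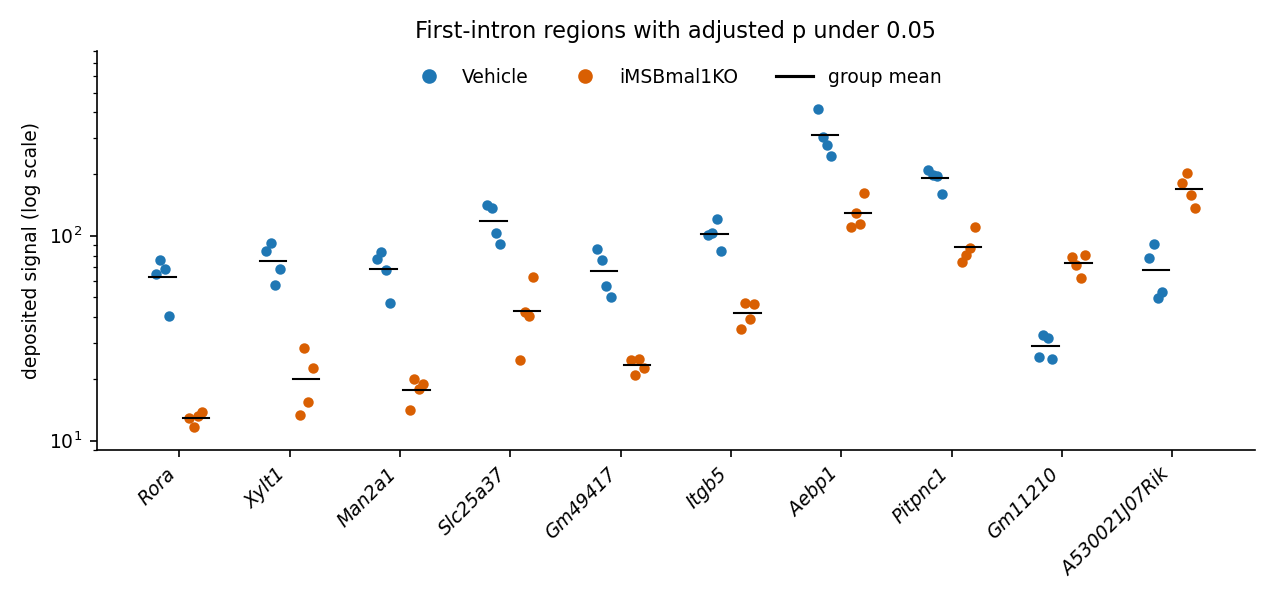
Deposited signal (y axis, log scale) of 10 of the 11 changed first-intron regions in each library (points) with the group mean (bar), ordered from the most negative to the most positive change. In each of these 10 the 4 Vehicle and 4 iMSBmal1KO points do not overlap.

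First introns of the other listed muscle genes held no changed region. The fast-fibre and slow-fibre lists had 10 and 2 tested regions, of which 0 had an unadjusted p below 0.05. The sarcomere and Z-disc list had 49 tested regions in 10 of its 24 genes, with 2 higher and 0 lower at an unadjusted p below 0.05 (4.08%, beside 8.16% of all tested first-intron regions) and a median log2 change of 0.07, or -0.05 under equal totals and under loess. Among them, Ttn, the gene of the giant spring protein titin, had 5 tested regions, of which 5 were positive (4 under either other scaling), with a median of 0.26 and a smallest adjusted p of 0.650. Actn2, which encodes the Z-disc actinin, had the smallest p of the list, with a log2 change of 1.30 ± 0.45 (SE, adjusted p = 0.448). The 29 tested regions of nuclear receptor and metabolic regulator genes had 0 with an unadjusted p below 0.05, and a median of -0.00.

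Calcium-handling genes had 95 tested first-intron regions, of which 12 were higher and 2 lower at an unadjusted p below 0.05 (14.7%, beside 8.16% of all tested first-intron regions), and 0 passed adjustment. Of all tested first-intron regions 58.1% were positive, and 46.0% and 46.9% under equal totals and loess. In Stim1, the calcium sensor of the reticulum, 17 of 18 tested regions were positive (16 with equal totals, 17 with loess), with a median log2 change of 0.37. In Trdn, which encodes triadin of the calcium release complex, 16 of 19 were positive (15 under either other scaling), with a median of 0.36. Cacna2d1, an auxiliary subunit of the calcium channel, had 10 of 12 positive (8 under either other scaling), and Itpr1, an inositol trisphosphate receptor, 3 of 9. Camk2b, a calcium-activated kinase, had 3 of 12 positive and a median of -0.13. The Itpr1 region at 7040 bp had the smallest p of the list, with a signal of 382 in Vehicle and 231 in iMSBmal1KO, a log2 change of -0.73 ± 0.22 (SE, adjusted p = 0.354). The list's median was 0.18, and 0.05 and 0.09 under equal totals and loess. Regions of one gene share their locus, so these shares are descriptions.

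Genes of the dystrophin complex and membrane had 83 tested regions, 9 higher and 1 lower at an unadjusted p below 0.05 (12.05%, beside 8.16% of tested first-intron regions) and 0 after adjustment, with a median of 0.09, which was -0.02 under equal totals and 0.03 under loess. Ank3, a membrane skeleton ankyrin, had 27 of 37 positive (median 0.38; 22 with equal totals, 24 with loess), and Utrn, which encodes the dystrophin relative utrophin, 8 of 11 (median 0.38; 6 and 7). Itga7, the laminin-binding integrin of muscle, had a region with a log2 change of -0.90 ± 0.29 (SE, adjusted p = 0.414). Glucose and fat metabolism genes had 32 tested regions, 2 higher and 1 lower at an unadjusted p below 0.05 (9.38%) and 0 after adjustment. Among them Tbc1d4, a regulator of glucose transporter traffic, had 16 of 22 positive (14 and 13 under the other scalings) and a smallest adjusted p of 0.343.

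Markers of other cells in the muscle had few tested first-intron regions. Satellite cell genes had 14 tested regions, 3 higher and 0 lower at an unadjusted p below 0.05 (21.4%, beside 8.16% of tested first-intron regions). Sdc4, a surface proteoglycan, held 9 of the 14 and all 3 higher ones, with a median log2 change of 0.45, so this share rests on 1 gene. Cdh15 had 4 tested regions with a median of 0.16, and Myod1 had 1 at 0.07. Their smallest unadjusted p values were 0.440 and 0.843 by limma. The median of the 14 was 0.32 as deposited, 0.20 with equal totals and 0.25 with loess. The summed signal of all satellite cell first-intron regions was 785 to 1044 over Vehicle and 1087 to 1249 over iMSBmal1KO libraries. These sums did not overlap as deposited, by a narrow gap, and were not compared under the other scalings. Most of the summed signal came from Sdc4, with 780 ± 105 and 997 ± 75.3 units (SD, n = 4). Pax7, the defining satellite cell factor, had 1 region with 3.26 ± 3.19 and 3.81 ± 1.53. Myf5 had 3 regions, all under the filter, with summed signals of 10.8 ± 4.91 and 7.71 ± 2.97. The part of satellite cells in the other results was not tested. Endothelial genes had 8, with 1 lower, in the receptor gene Tek (log2 change -1.06 ± 0.40 SE, adjusted p = 0.482), and the summed signal of all their first-intron regions was 459 to 644 in Vehicle and 414 to 474 in iMSBmal1KO libraries. Smooth muscle and pericyte genes had 9, with 1 higher. Macrophage and Schwann cell genes had 0 tested regions, and adipocyte genes had 0 first-intron regions in the table. No region of these lists passed adjustment by limma's test.

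The number of tested first-intron regions per gene was led by a few genes. After Galnt2l with 202 and Rora with 104 came Pde4d, a cAMP phosphodiesterase, with 88, Gse1 with 63 and Iqsec1 with 41. Galnt2l, Pde4d, Gse1 and Iqsec1 had 0 changed regions. An unadjusted p below 0.05 was found in 24 of 202, 10 of 88, 5 of 63 and 3 of 41, beside 1088 of 13339 tested first-intron regions (8.16%). The median log2 changes were 0.02, 0.11, -0.16 and -0.15 as deposited, and were not computed under the other scalings. The 83 tested regions that overlapped a RefSeq promoter window had 0 changed regions, 5 with an unadjusted p below 0.05 (6.02%, beside 9.22% of all tested regions), all higher, and a median log2 change of 0.10.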

How the data were processed

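Accessibility was measured by ATAC-seq in 8 gastrocnemius libraries, 4 per group. The authors deposited one table of signal per region and library with gene annotation. Per the submitters' processing notes, Partek, Bowtie2, MACS2 and DESeq2 were used, and the builds mm10 and GRCm39 are named. Duplicate removal and the shift for the transposase are not given in the sources used here. Gene starts of the table equalled those of RefSeq GRCm38.p6 exactly for 25.1% of 22132 matched genes, against 1.24% after a 5 bp shift, so coordinates are given as GRCm38, counted from 1.

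In each library 98.3% to 99.8% of non-zero values were whole multiples of one step, within 0.02 reads, and values divided by that step are called read equivalents (M, units of 1000000). Intervals for reads would cover counting error only and none are given.

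The signal was tested as log2(signal + 1) by limma-trend (limma 3.58.1 under R 4.3.3; robust moderation; a model of group alone) over 124901 regions that had 0.762 read equivalents per M in at least 4 libraries and 15 in total. Adjustment followed Benjamini and Hochberg across all of them (threshold 0.05). In a simulation at the depths of these libraries, with 200 of 124901 regions changed 4-fold, 145 were called (72.5%), with 3 unchanged regions called. It drew independent counts with the same dispersion for every region, no scaling shift and no outlying library. Its rates therefore do not carry over to the real libraries. Values per library were compared by exact two-sided tests over 70 arrangements or 256 sign flips. Changed regions, the densest region per distance range, the genes with the most tested regions and the listed gene sets were named by rule. Of the changed regions 1 is counted but not reported here. The regions and gene lists were chosen with earlier results of these data known. The count-based test first planned was replaced by limma because the values are scaled. Lists were core clock, sarcomere, calcium handling, nuclear receptors, glucose and fat metabolism, dystrophin complex, fast and slow fibre, satellite, fibro-adipogenic, endothelial, smooth muscle, macrophage, adipocyte and Schwann cell genes. Other pseudocounts, filters, scalings, a replicate term, merged regions and leaving out each library were tried. Sequences came from RefSeq promoter tables. Python 3.11.15, pandas 2.3.3 and matplotlib 3.10.9 were used.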

Additional observations from a re-analysis of the deposited data

Results flagged for a closer look

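Among 44 group values checked for 1 library far from the other 3, where about 2.2 are found by chance, 1 stood out. The median log2 signal of first-intron regions minus that of later-intron regions was 0.0976 in Vehicle replicate 3 and 0 in the other Vehicle libraries. Its gap to the nearest library was the whole range of the group. Nearly all values are whole multiples of one step per library, so such medians move by whole reads and ties give 0. The median tested first-intron region of Vehicle replicate 3 held 29 reads.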

How the results depend on the processing

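The number of changed first-intron regions was 11 as reported, 11 with a pseudocount of 0.5, 19 with a pseudocount of 5, 25 (9 higher, 16 lower) without the filter, 20 under the stricter filter, 26 with equal totals, 41 with loess, 14 on chromosomes 1 to 19 only, 3 at an adjusted p of 0.01 and 15 after merging abutting regions. Leaving out one library gave 1 to 32. With the replicate number as a block there were 7 calls, 6 of them among the 11. Deviations of same-numbered libraries correlated by -0.06, 0.14, 0.02 and 0.02. Differently numbered libraries were not compared, so this does not settle whether the numbers pair the samples.

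No group summary passed under any alternative run. The difference in first-intron share (iMSBmal1KO minus Vehicle) was 0.0258 percentage points with all chromosomes as denominator. Without Gm33838, an alternative chosen after seeing the data, the differences were -0.0511 at 1000 to 2000 bp, 0.0831 at 2000 to 5000 bp, 0.0509 at 5000 to 10000 bp, 0.0496 at 50000 to 100000 bp and 0.0574 beyond. Leaving out one library gave -0.36 to 0.0674 at 2000 to 5000 bp, -0.26 to 0.00519 at 50000 to 100000 bp, -0.20 to 0.0173 beyond 100000 bp, and -0.016 to 0.0165 for the first-minus-later median log2 signal. At matched distance, first against later introns gave log2 ratios of -0.0107 (2000 to 5000 bp) and -0.0454 (10000 to 20000 bp) over tested regions, and -0.00503 (100 to 1000 bp), -0.0117 (20000 to 50000 bp) and 0.0366 (over 100000 bp) as medians over regions. The cause of these shifts was not tested. Among 462 alternative values 352 stayed the same, 58 lost the threshold, 39 moved and 13 turned. A count-model alternative was planned and not run, since the values are not counts. Depth limits the weak regions most: in Vehicle replicate 4 the median tested region held 5 reads.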
